A study of Homo sapiens with 12 samples.

Results

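The genes described here are 10 of the 22506 genes in the deposited count table, chosen by name for their part in the control of the G1 phase of the cell cycle. They are the D-type cyclin genes CCND1, CCND2 and CCND3, the kinase genes CDK4 and CDK6, the CDK inhibitor genes CDKN2A, CDKN2B, CDKN1B and CDKN1C, and the retinoblastoma gene RB1. RNA sequencing was done on 12 libraries of the human lines H1703, H1299, CHAGO and CALU, which the series title places in lung squamous cell carcinoma. Each line gave 1 library of parental cells, which the labels also call adherent, 1 of tumor-initiating cells (TICs, the cells thought to start and renew a tumor) and 1 of TICs with PRKCI knocked down. PRKCI encodes protein kinase C iota, and the study asked what it does in TICs. How PRKCI was knocked down and how TICs were cultured is not stated in the labels. Each line is established and stands for itself only, so the 4 lines are the replicates of a state. The line is a term of the fit. The spread behind each test of state is therefore how unequally the lines differ between states, not how their levels differ.

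D-type cyclins bind CDK4 or CDK6 in G1, and the active kinase phosphorylates RB, which then releases E2F transcription factors that switch on genes for DNA replication. The INK4 proteins p16 (from CDKN2A) and p15 (from CDKN2B) block CDK4 and CDK6, while the CIP/KIP proteins p27 (from CDKN1B) and p57 (from CDKN1C) bind several cyclin-CDK complexes. In lung cancer this route is often disturbed, by loss of CDKN2A or RB1 or by gain of CCND1.

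Levels are CPM (reads per mega of library reads) scaled with TMM factors, and the libraries held 21.2 to 36.1 M (mega) counted reads in H1703 and H1299 and 63.8 to 91.8 M in CHAGO and CALU. PRKCI itself stood at 261 to 357 CPM in parental cells, 199 to 608 CPM in TICs and 23.2 to 58.1 CPM in knockdown TICs, with no overlap between the knockdown libraries and either other group. The 7 squamous markers summed to 0 to 25.6 CPM in parental cells, 3.6 to 69.8 CPM in TICs and 1.04 to 125.3 CPM in knockdown TICs. Of these, KRT5 and KRT14 reached at most 2.52 and 2.47 CPM and PKP1 stayed under 1 CPM in all 12 libraries, while TP63 reached 45.2 CPM in CALU TICs, SOX2 38.8 CPM in H1299 TICs, and KRT6A and DSG3 43.6 and 30.4 CPM in CHAGO knockdown TICs. The epithelial genes CDH1 and EPCAM stood at 826 to 1105 and 432 to 666 CPM in CHAGO, and CDH1 had no read in any library of H1703 or H1299. KRT19 stood at 112 to 237 CPM in CALU, where CDH1, EPCAM, KRT8 and KRT18 reached at most 4.35, 23.9, 46 and 42.5 CPM. KRT18 stood at 20.1 to 21.9 CPM in H1299, where KRT19 had no read and EPCAM and KRT8 reached at most 0.71 and 7.2 CPM. In H1703 the highest epithelial value was 1.42 CPM, for KRT18 in parental cells. The 7 fibroblast genes summed to 0.494 to 2610 CPM in parental cells. The sums were 0.0323 to 3077 CPM in TICs and 2.12 to 2554 CPM in knockdown TICs. In H1703 PDGFRA stood at 2554 to 3076 CPM and made up nearly all of the sum. There COL1A1 and COL3A1 reached at most 1.67 and 0.145 CPM, and COL1A2, DCN, LUM and PDGFRB had no read. In CALU COL1A1 stood at 301 to 1340 CPM and COL1A2 at 25.1 to 110.6 CPM. LUM, DCN, PDGFRB, PDGFRA and COL3A1 reached at most 34.75, 25.55, 9.38, 4.13 and 0.889 CPM in CALU. Of the leukocyte genes, PTPRC, CD3E and LYZ were under 1 CPM in all 12 libraries, CD14 reached 4.06 CPM in CHAGO knockdown TICs, and CD68 stood at 97.1 to 809.5 CPM in 11 libraries and at 0.0900 CPM in CHAGO parental cells.

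Differences between lines were called for 6 of the members, and differences between states for none. All 10 passed the filter on low counts. CDKN2A had been named beforehand for its pattern by line and is described without a test of lines. Of the other 9 members, 6 differed between lines (edgeR quasi-likelihood F test, Benjamini-Hochberg adjusted p under 0.05): CCND1, CCND2, CCND3, CDK6, CDKN2B and RB1. Over all 14008 genes tested the same call was made for 45.4%. In this test the 3 libraries of a line, which differ in state, served as its repeats. By state, no member was called: 0 of 10 in TICs against parental cells (background 0.0286% of genes), 0 of 10 in knockdown TICs against TICs (0.0143%) and 0 of 10 in knockdown TICs against parental cells (0.0357%). DESeq2 also called 0 of the 10 in each comparison, where it called 4.14%, 0.0851% and 3.38% of the genes to which it gave an adjusted p value (CDKN1C got none in either comparison with parental cells). At an unadjusted p under 0.05 in edgeR, CDKN2B was higher in TICs than in parental cells, as were 5.73% of all genes. In knockdown TICs against TICs, CDK6 was higher at that level (2.08% of all genes) and CDKN2A lower (2.2%), and in knockdown TICs against parental cells CDK4 was lower (5.29%). The 3 comparisons share libraries, so their values are not independent of each other.

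**Figure D1:**
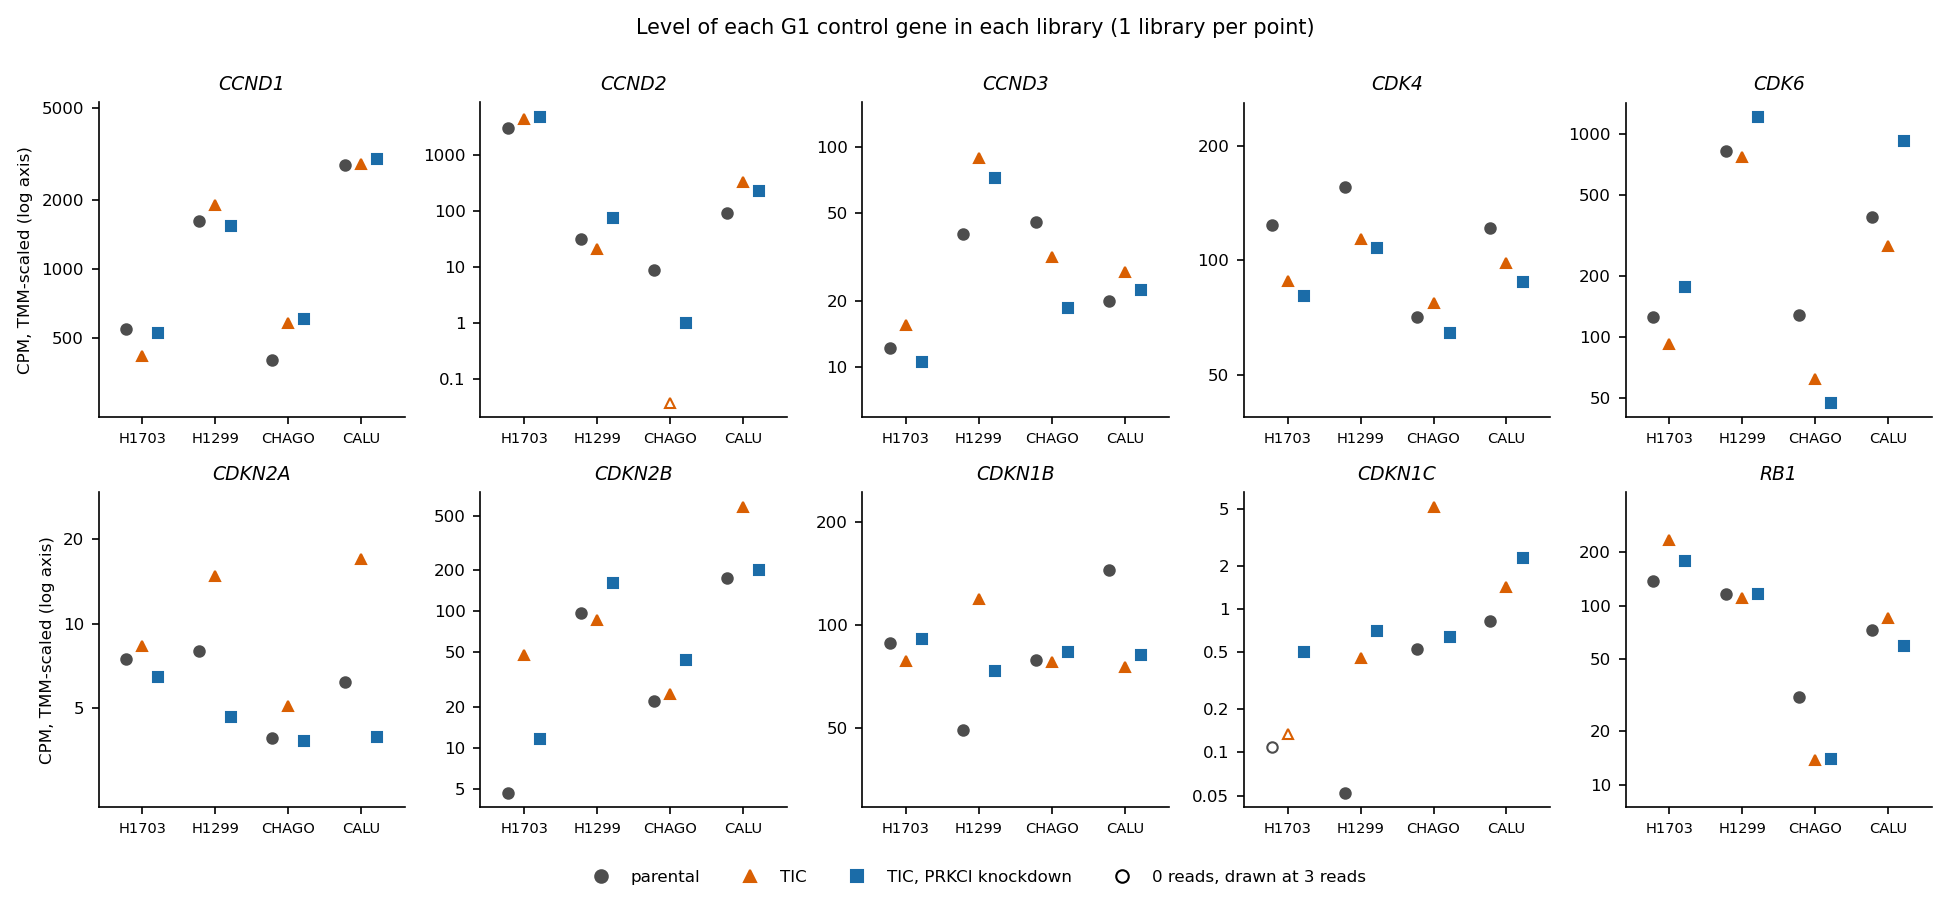
Level of the 10 G1 control genes in CPM (TMM-scaled, log axis) for each cell line, with 1 library per point and the state shown by colour and shape. CCND2 spans from 0 reads in CHAGO TICs, drawn open at the level of 3 reads, to 4766 CPM in H1703 knockdown TICs, while the CDKN1B points lie between 49.5 and 144.6 CPM.

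Among the D-type cyclins, CCND1, the form most often gained in solid tumors, had its highest levels in CALU. It stood at 544, 417 and 527 CPM in parental cells, TICs and knockdown TICs of H1703, at 1613, 1885 and 1541 CPM in H1299, at 398, 579 and 603 CPM in CHAGO, and at 2838, 2847 and 2990 CPM in CALU. All 3 CALU libraries lay above the other 9, and H1299 lay above CHAGO and H1703, whose ranges overlapped. The mean was 2892 ± 85.4 CPM in CALU and 496 ± 68.9 CPM in H1703 (SD over the 3 states), and the difference between lines passed the test (adjusted p = 4.4e-05). Lines that stand wholly above or wholly below the other 9 libraries were found for 37.9% of all genes tested. Between states the edgeR log2 fold change of CCND1 was 0.09 (SE 0.17, adjusted p = 0.880) in TICs against parental cells and 0.04 (SE 0.17, adjusted p = 0.996) in knockdown TICs against TICs. Within a line, the log2 difference between TICs and parental cells ran from −0.38 in H1703 to 0.54 in CHAGO.

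CCND2 showed the widest span of the 10 genes. Its levels, again in the order parental cells, TICs and knockdown TICs, were 3058, 4302 and 4766 CPM in H1703, 31.8, 20.7 and 73.1 CPM in H1299, 8.82, 0 and 1.004 CPM in CHAGO, and 89.5, 332 and 221.5 CPM in CALU. No ranges of lines overlapped: H1703 was the highest at a mean of 4042 ± 883 CPM, then CALU, H1299 and CHAGO at 3.275 ± 4.83 CPM (SD over the 3 states; adjusted p = 0.00246 between lines). The 3 CHAGO libraries held 588, 0 and 76 CCND2 reads. For a limit, 3 reads were taken as the most that a count of 0 allows in that library, and the other count as exact. CCND2 was then at least 240.4-fold lower in CHAGO TICs than in CHAGO parental cells. It was at least 27.4-fold higher in CHAGO knockdown TICs than in CHAGO TICs. In CALU the TIC library stood above the parental library by 1.89 on the log2 scale, and in H1299 below it, by −0.62. The combined log2 fold change of TICs over parental cells was −0.81 (SE 1.33, adjusted p = 0.865), and without CHAGO it was 0.71, so that its direction rests on this line.

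Genes beside CCND2 on chromosome 12 were read in the CHAGO libraries. In the CHAGO TIC library without CCND2 reads, C12orf4 stood at 16.6 CPM, C12orf5 at 23.1, DYRK4 at 25.1, PARP11 at 4.48 and RAD51AP1 at 110 CPM. In the other 2 CHAGO libraries these genes stood at 36.4 to 50, 26.0 to 30.4, 3.85 to 10.8, 14.3 to 20.6 and 86.8 to 149 CPM in the same order. C12orf4, C12orf5 and PARP11 were thus lowest in the library with no CCND2 read, whereas DYRK4 was highest there. In the 9 libraries of the other lines C12orf4 ran from 57.5 to 182 CPM, C12orf5 from 25.6 to 100.5, DYRK4 from 1.26 to 31.6, PARP11 from 5.07 to 60.6 and RAD51AP1 from 32.5 to 203 CPM. FGF6 had no read in any library, and FGF23 was read in knockdown TICs of H1703 alone, at 5.13 CPM.

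CCND3 was a minor D-type cyclin in each line. It stood at 12.3, 15.5 and 10.54 CPM in H1703, at 40.1, 88.9 and 72.2 CPM in H1299, at 45.4, 31.7 and 18.6 CPM in CHAGO, and at 19.9, 26.9 and 22.4 CPM in CALU. The 3 H1703 libraries lay below the other 9, and the ranges of H1299 and CHAGO and of CHAGO and CALU overlapped. The difference between lines had an adjusted p of 0.00551. Without the TIC libraries or without the knockdown libraries it no longer passed (adjusted p = 0.102 and 0.0732). Knockdown TICs were lower than TICs in 4 of 4 lines for CCND3, as also for CDK4 and CDKN2A (7.14% of all genes). For CCND3 these log2 differences ran from −0.77 in CHAGO to −0.27 in CALU, with a combined value of −0.45 (SE 0.35, adjusted p = 0.980).

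Levels of different genes can be set side by side only per length of transcript, for which the exons of each gene were merged (GENCODE, build GRCh38, although the reads were placed on hg19). On that scale CCND2 made up 78.8%, 87.1% and 85.7% of all D-type cyclin reads per kilobase in parental cells, TICs and knockdown TICs of H1703. In the other 3 lines CCND1 made up most: 93.4% to 96.7% in H1299, 90.1% to 97.4% in CHAGO and 92.02% to 97.4% in CALU. The form that prevailed was thus the same in the 3 states of each line. CCND3 had its largest share, 8.55%, in CHAGO parental cells, with 4.36% in TICs and 2.497% in knockdown TICs of that line. With the longest coding transcript as the length, these 3 shares were 16.8%, 8.98% and 5.25%. The sum of the 3 cyclins per kilobase was 542 to 777 CPM in H1703, 604 to 654 CPM in CALU, 342 to 409 CPM in H1299 and 91.5 to 128 CPM in CHAGO. CHAGO was therefore lowest in total D-type cyclin RNA in each state.

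**Figure D2:**
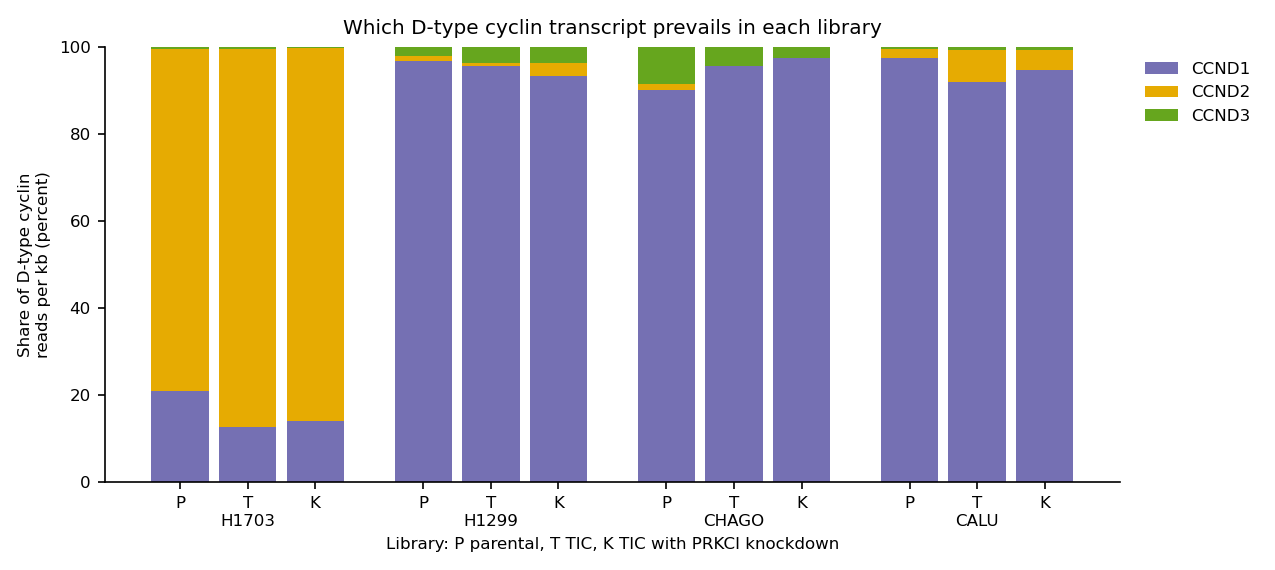
Share of CCND1, CCND2 and CCND3 in the D-type cyclin reads per kilobase of merged exons (percent, stacked to 100) in each of the 12 libraries, as 1 bar per library. CCND2 fills 78.8% to 87.1% of the 3 H1703 bars, and CCND1 fills at least 90.1% of each other bar.

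The kinase gene CDK4 varied little. It stood at 124, 88.3 and 80.3 CPM in parental cells, TICs and knockdown TICs of H1703, at 155, 113.5 and 107 CPM in H1299, at 71.0, 77.3 and 64.5 CPM in CHAGO, and at 121, 98.4 and 87.4 CPM in CALU. The 3 CHAGO libraries lay below the other 9, and the highest line exceeded the lowest 1.77-fold in mean level, with an adjusted p of 0.0516 between lines in edgeR and 0.00487 in DESeq2, which called 56.5% of all genes. CDK4 was lowest in knockdown TICs in 4 of 4 lines. Against parental cells the log2 differences ran from −0.62 in H1703 to −0.14 in CHAGO (lower in 4 of 4 lines, as for 9.11% of all genes), and the combined value was −0.45 (SE 0.18, adjusted p = 0.415 in edgeR). Against TICs it was −0.17 (SE 0.18, adjusted p = 0.981). The gene TSPAN31 overlaps the end of CDK4 on the other strand, and the sources used here do not say whether counting used strand.

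CDK6, which can replace CDK4 in many cells, differed more. Its levels were 126, 92.7 and 177 CPM in H1703, 826, 765 and 1212 CPM in H1299, 128.5, 62.7 and 47.4 CPM in CHAGO, and 389, 279.5 and 922 CPM in CALU, in the same order of states. H1299 and CALU had overlapping ranges above those of H1703 and CHAGO, which overlapped each other, and the highest mean exceeded the lowest 11.75-fold (adjusted p = 0.000551 between lines). TICs lay below parental cells in 4 of 4 lines, as for 8.97% of all genes, and in 3 of 4 with the authors' mode-normalized values. That log2 fold change was −0.56 (SE 0.35, adjusted p = 0.590). In knockdown TICs CDK6 was above TICs by 0.94 in H1703, 0.66 in H1299 and 1.72 in CALU and below them, by −0.40, in CHAGO. The combined value was 0.84 (SE 0.36, adjusted p = 0.980 in edgeR, 0.581 in DESeq2 and 0.581 to 1 over 11 alternative settings).

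Per kilobase, the ratio of CDK6 to CDK4 was 0.264, 0.271 and 0.570 in parental cells, TICs and knockdown TICs of H1703, 1.37, 1.74 and 2.92 in H1299, 0.468, 0.209 and 0.190 in CHAGO, and 0.8287, 0.734 and 2.73 in CALU. CDK6 RNA exceeded CDK4 RNA in the 3 H1299 libraries and in knockdown TICs of CALU, and was below it in the other 8 libraries. The ratio was highest in knockdown TICs in 3 lines and lowest there in CHAGO. With the longest coding transcript as the length, the ratio fell under 1 in H1299 parental cells (0.951) and stayed above 1 in the other 2 H1299 libraries and in knockdown TICs of CALU.

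CDKN2A was read in all 12 libraries, with 106 to 1410 reads in each, so that no line showed a loss of its RNA. It stood at 7.53, 8.37 and 6.45 CPM in H1703, at 7.98, 14.9 and 4.68 CPM in H1299, at 3.92, 5.09 and 3.83 CPM in CHAGO, and at 6.24, 17.02 and 3.95 CPM in CALU. The TIC library was the highest of its line and the knockdown library the lowest in 4 of 4 lines. The ranges of H1299, CALU and H1703 overlapped, and CHAGO, lowest in mean level at 4.28 ± 0.703 CPM (SD over the 3 states), overlapped H1299 and CALU. TICs exceeded parental cells in 4 of 4 lines (8.32% of all genes), by 1.44 on the log2 scale in CALU, 0.89 in H1299, 0.38 in CHAGO and 0.15 in H1703. The combined log2 fold change was 0.77 (SE 0.50, adjusted p = 0.600). For knockdown TICs against TICs it was −1.16 (SE 0.51, adjusted p = 0.980 in edgeR, 0.452 in DESeq2 and 0.452 to 1 over 11 alternative settings), from −2.10 in CALU to −0.38 in H1703. Both comparisons use the same TIC libraries, so a high TIC value adds to each. Against parental cells, knockdown TICs were at −0.38 (SE 0.50, adjusted p = 0.836). The count of CDKN2A sums transcripts from separate starts, for p16 and for ARF, and cannot tell them apart.

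CDKN2B, the neighbour of CDKN2A on chromosome 9, differed more by line. Its levels were 4.65, 47.9 and 11.5 CPM in H1703, 97.1, 86.0 and 161 CPM in H1299, 22.1, 24.7 and 44.1 CPM in CHAGO, and 176, 583 and 202 CPM in CALU. The 3 CALU libraries lay above the other 9, H1299 came next without overlap, and CHAGO and H1703 overlapped (adjusted p = 0.00253 between lines). TICs exceeded parental cells by 3.35 on the log2 scale in H1703 and 1.73 in CALU, while the differences were 0.16 in CHAGO and −0.17 in H1299. The combined log2 fold change was 1.43 (SE 0.57), with an adjusted p of 0.361 in edgeR and 0.0852 in DESeq2, the lowest over 11 alternative settings, whose highest was 0.9996. Knockdown TICs were below TICs by −2.05 in H1703 and −1.53 in CALU, and above them by 0.91 in H1299 and 0.84 in CHAGO, for a combined −0.65 (SE 0.56, adjusted p = 0.980). They exceeded parental cells in 4 of 4 lines (8.1% of all genes), for a combined 0.78 (SE 0.53, adjusted p = 0.657). With 1 library for each line and state, a difference between lines in the response could not be tested.

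The antisense gene CDKN2B-AS1 overlaps CDKN2B, so that reads of either could be counted for the other if strand was not used. It is named here for that overlap, outside the rule for named genes. It stood at 0.545, 1.13 and 1.24 CPM in H1703, 1.92, 6.01 and 1.15 CPM in H1299, 1.53, 0.0856 and 0.740 CPM in CHAGO, and 1.54, 12.2 and 3.86 CPM in CALU. In each library it was under CDKN2B. MTAP, a gene beside CDKN2A that is often lost with it in tumors and is likewise named outside the rule, was read in all 12 libraries, at 30.6 to 109.6 CPM. Among the listed neighbours on chromosome 9, PLIN2, DMRTA1 and KLHL9 had the smallest p in TICs against parental cells. PLIN2 and DMRTA1 had no read in any H1703 library, and reached 117.5 and 11.7 CPM in other lines. KLHL9 was read in all 12 libraries, at 31.9 to 97.1 CPM. Whether the locus was altered in a line was not tested.

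CDKN1B, whose protein p27 restrains CDK2 and is controlled largely by turnover of the protein, had the least difference between line means. It stood at 88.7, 78.8 and 91.2 CPM in H1703, at 49.5, 119 and 73.5 CPM in H1299, at 78.8, 77.8 and 83.5 CPM in CHAGO, and at 144.6, 75.7 and 82.0 CPM in CALU. The ranges of all 4 lines overlapped, and the highest line exceeded the lowest 1.26-fold in mean level (adjusted p = 0.813 between lines). TICs exceeded parental cells by 1.27 on the log2 scale in H1299, lay below them, by −0.93, in CALU, and differed by −0.17 in H1703 and −0.02 in CHAGO. The combined log2 fold change was 0.02 (SE 0.32, adjusted p = 0.991), and for knockdown TICs against TICs it was −0.11 (SE 0.31, adjusted p = 0.993).

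CDKN1C, an imprinted gene whose protein p57 holds cells out of the cycle, was the lowest member in reads. H1703 had 0, 0 and 13 reads in parental cells, TICs and knockdown TICs, H1299 had 2, 14 and 16, CHAGO had 35, 420 and 48, and CALU had 71, 117 and 161. As levels, CHAGO stood at 0.525, 5.14 and 0.634 CPM and CALU at 0.820, 1.41 and 2.27 CPM, and no library of H1703 or H1299 exceeded 0.706 CPM. CHAGO TICs were highest, 3.20 above CHAGO parental cells on the log2 scale. In H1703, 3 reads per library were taken as the floor and the 13 knockdown reads as exact. The knockdown TICs were then at least 3.72-fold higher than the TICs and at least 4.6-fold higher than the parental cells. In H1299 the ratio of TICs to parental cells was 8.69 (95% counting interval 1.996 to 78.8) and that of knockdown TICs to parental cells 13.6 (3.19 to 121.7). Knockdown TICs exceeded parental cells in 4 of 4 lines, and in 3 with the authors' mode-normalized values, which are rounded to whole numbers. The fitted log2 fold change was 2.24 (SE 1.41, adjusted p = 0.590) in TICs against parental cells and 3.06 (SE 1.51, adjusted p = 0.503) in knockdown TICs against parental cells, and these depend on how a count of 0 is treated.

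Among the genes beside CDKN1C on chromosome 11, KCNQ1OT1, an RNA transcribed from the imprinting centre of that region, stood at 13.2 to 31.6 CPM in H1703, 41.2 to 43.8 CPM in CALU, 17.1 to 43.6 CPM in CHAGO and 0.676 to 19.8 CPM in H1299. H19 was read in CHAGO at 48.7 to 81.7 CPM and had at most 1.63 CPM in any other library. NAP1L4, CARS and CD81 were read in all 12 libraries, at 9.77 to 44.8, 17.2 to 66.1 and 6.37 to 39.9 CPM. PHLDA2 stood at 2.09 to 7.08 CPM, TSSC4, SLC22A18 and SLC22A18AS reached at most 0.930, 1.002 and 1.59 CPM, IGF2 was read in H1299 TICs alone at 5.52 CPM, and KCNQ1 had at most 0.0612 CPM. KCNQ1OT1, NAP1L4, CARS and CD81 were read in H1703, where CDKN1C had no read in 2 of 3 libraries. The cause of the missing CDKN1C reads was not tested.

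RB1, the target of the cyclin D kinases, followed the line in each state. Its levels were 138, 232 and 178 CPM in parental cells, TICs and knockdown TICs of H1703, 117, 111 and 115.5 CPM in H1299, 31.0, 13.7 and 13.9 CPM in CHAGO, and 73.0, 85.4 and 59.4 CPM in CALU. No ranges of lines overlapped: H1703 lay above the other 9 libraries, then came H1299 and CALU, and CHAGO lay below the other 9. As for CCND2, the share of all genes with such a separation was not counted. The mean in H1703 was 9.35-fold that in CHAGO (adjusted p = 0.000663 between lines). TICs differed from parental cells by 0.75 on the log2 scale in H1703, 0.23 in CALU, −0.07 in H1299 and −1.17 in CHAGO, for a combined −0.09 (SE 0.30, adjusted p = 0.942). In knockdown TICs against TICs the combined value was −0.23 (SE 0.29, adjusted p = 0.981). In bulk RNA such as this, fewer cells with a transcript and less of it per cell cannot be told apart.

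**Figure D3:**
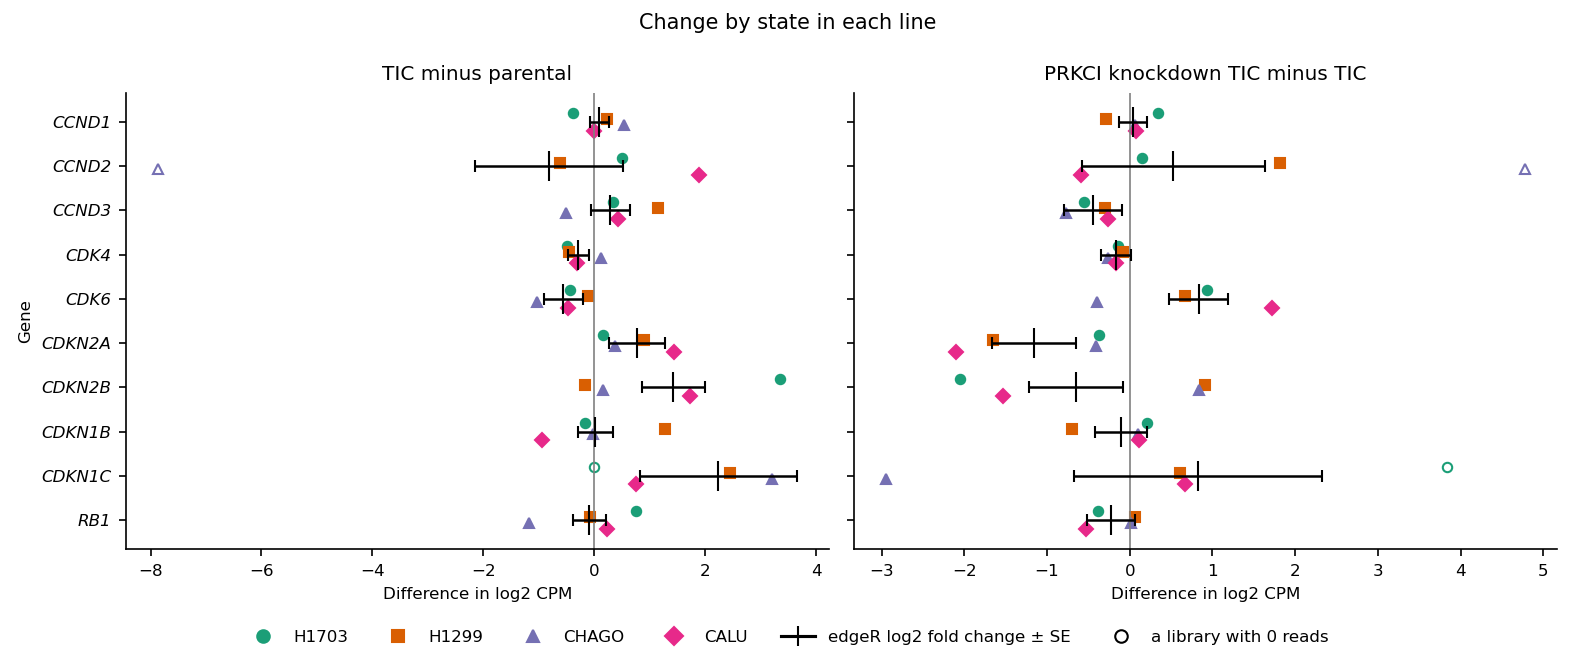
Difference between states in log2 CPM for the 10 genes, with 1 coloured point per cell line, the edgeR log2 fold change as a vertical tick and its standard error as a bar, for TICs minus parental cells on the left and knockdown TICs minus TICs on the right. Open points have a library with 0 reads and depend on the prior count of 2, and the 4 CDKN2A points lie right of 0 on the left and left of 0 on the right.

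Within single lines, the members that differed more than 2-fold between TICs and parental cells were CDKN2B in H1703, CCND3, CDKN1B and CDKN1C in H1299, and CCND2, CDKN2A and CDKN2B in CALU, all higher in TICs. In CHAGO, CDKN1C was higher and CCND2, CDK6 and RB1 were lower. These are 1 of 10 members in H1703, 3 in H1299, 3 in CALU and 4 in CHAGO, where 35.7%, 42%, 35.3% and 32.5% of all genes passed the same fold. For knockdown TICs against TICs, 2 members passed in H1703, 2 in H1299, 3 in CALU and 2 in CHAGO, beside 33.3%, 34.2%, 30.3% and 25.7% of all genes. Differences between 1 library and 1 other have no replicate check.

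Genes whose level over the 12 libraries was most like that of a member were taken by Pearson correlation of log2 CPM among 8747 other tested genes whose mean log2 CPM was 2 or more. The closest were PVRL3 for CCND1 (r = 0.989), PIN4 and ZEB1 for RB1 (0.988 and 0.963), UBR1 for CDK6 (0.961), PRCP for CCND2 (0.956) and PSD3 for CDKN2B (0.945). The best r was lower for CDKN2A (MOSPD3, 0.871) and CDKN1B (ACAD10, 0.840). The 12 points share 4 lines, and these values do not separate line from state.

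Further CDK inhibitor genes were measured beside the members. CDKN1A, which encodes p21, stood at 8.18, 56.1 and 51.8 CPM in H1703, at 31.5, 99.5 and 153.5 CPM in H1299, at 2.96, 41.6 and 73.0 CPM in CHAGO, and at 15.7, 41.8 and 262 CPM in CALU. Every TIC and knockdown library lay above every parental library, a separation that 1.57% of all genes showed in TICs and 1.66% in knockdown TICs. The log2 fold change was 2.43 in TICs (SE 0.49, adjusted p = 0.159 in edgeR and 8.9e-05 in DESeq2) and 3.41 in knockdown TICs (SE 0.51, adjusted p = 0.086 in edgeR and 1.7e-09 in DESeq2), both against the same parental libraries. The calls in DESeq2 were thus not made by edgeR.

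CDKN2D encodes the INK4 protein p19. As for CDKN2A, its TICs lay above parental cells (8.32% of all genes) and above knockdown TICs (7.14%) in 4 of 4 lines. Both comparisons use the same TIC libraries. Unlike CDKN2A, its knockdown TICs were above parental cells in 2 lines and below them in 2. Its levels were 12.8, 19.5 and 5.06 CPM in H1703, 26.0, 55.4 and 26.2 CPM in H1299, 14.97, 22.1 and 14.3 CPM in CHAGO, and 20.3, 43.3 and 37.6 CPM in CALU. The log2 fold change was 0.81 (SE 0.38, adjusted p = 0.437) in TICs against parental cells and −0.89 (SE 0.38, adjusted p = 0.980) in knockdown TICs against TICs, and neither passed in edgeR. CDKN2C, the gene of p18, ran from 0.360 CPM in H1703 TICs to 21.96 CPM in CALU parental cells, with a log2 fold change of −1.58 (SE 0.77, adjusted p = 0.470) in TICs against parental cells.

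**Figure D4:**
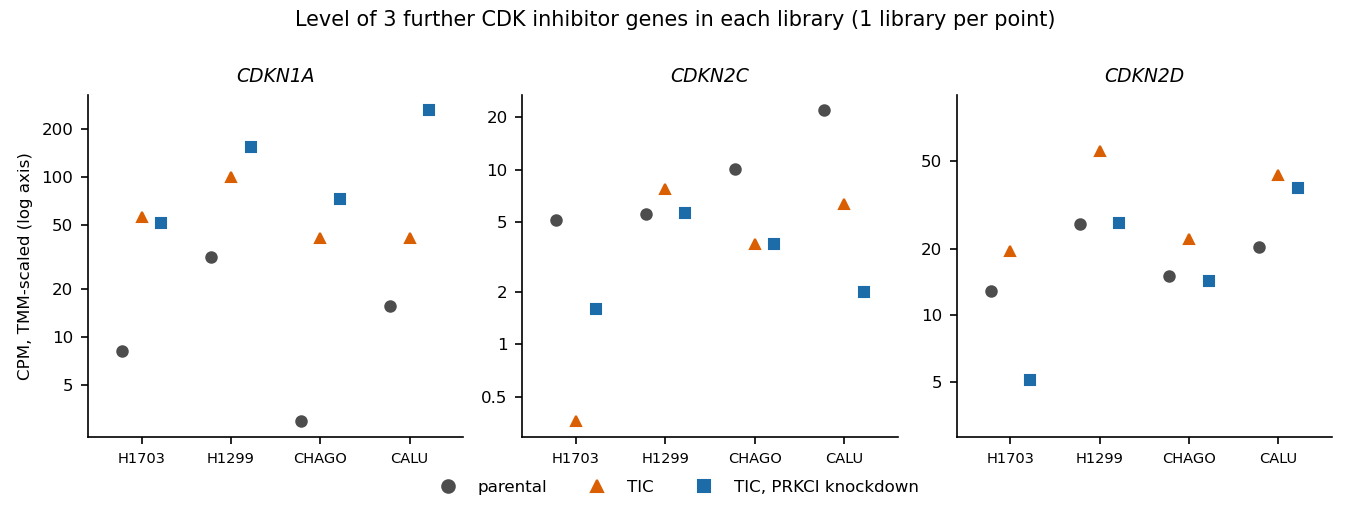
Level of CDKN1A, CDKN2C and CDKN2D in CPM (TMM-scaled, log axis) by cell line, with 1 library per point and the state shown by colour and shape. The highest CDKN1A level in parental cells is 31.5 CPM in H1299, and the lowest in TICs or knockdown TICs is 41.6 CPM in CHAGO.

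The genes on which this route acts were taken from fixed lists of 56 other genes, of which CCNE1, CCNE2, CDC25A, RBL1 and E2F1 stand in 2 lists and are counted in both. All 18 E2F target genes had a log2 fold change below 0 in TICs against parental cells, with a median of −1.16, where 48.7% of all genes lay above 0 and the median over all genes was −0.02. Of these, 9 were lower at an unadjusted p under 0.05 in edgeR (6.06% of all genes), edgeR called 0 after adjustment, and DESeq2 called 3, among them MCM3 and MCM4. MCM3, a subunit of the helicase that opens DNA for replication, stood at 318, 138 and 135 CPM in H1703, at 119.7, 53.01 and 35.9 CPM in H1299, at 172, 86.9 and 54.8 CPM in CHAGO, and at 120.5, 27.1 and 77.2 CPM in CALU. The TIC library was below the parental library in 4 of 4 lines, while the ranges of both groups overlapped (log2 fold change −1.31, SE 0.32, adjusted p = 0.197 in edgeR and 0.0159 in DESeq2). The median of the list was −2.15 in CALU, −1.37 in H1299, −0.65 in H1703 and 0.22 in CHAGO, so that CHAGO differed in sign. In knockdown TICs against parental cells 17 of 18 lay below 0 (median −1.04, with 47.1% of all genes above 0), and in knockdown TICs against TICs 11 lay above and 7 below (median 0.14, with 49.1% of all genes above 0).

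Markers of proliferation, of which PCNA is also among the E2F target genes and CCNA2 among the cyclin E and CDK2 genes, were summed in each library. The sum of MKI67, TOP2A, PCNA and CCNA2 was 1639 to 3545 CPM in parental cells, 606 to 3516 CPM in TICs and 648 to 2914 CPM in knockdown TICs, and all 4 had a log2 fold change below 0 in TICs, with a median of −2.52 in CALU and 0.38 in CHAGO. Their part in the result was not tested. The 10 members had a median log2 fold change of 0.06 in TICs against parental cells, with 6 above and 4 below 0.

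Of the lists closer to the members, the 5 cyclin E and CDK2 genes all lay below 0 in TICs against parental cells (median −1.16), and no call was made by edgeR or DESeq2. Over all genes 48.7% lay above 0 in this comparison. CCNE1 was near 0 (−0.03, SE 0.56) and higher in TICs in 3 of 4 lines. The list median was −1.82 in H1299, −1.81 in CALU, −0.05 in H1703 and 0.56 in CHAGO, so that the lines differed. CCNE2, a cyclin E gene, had the smallest p (log2 fold change −1.26, SE 0.48, adjusted p = 0.347 in edgeR). Of the 12 pocket protein, E2F and DP genes, 8 lay below and 4 above 0, and DESeq2 called TFDP1, the partner of E2F factors (−1.01, SE 0.22, adjusted p = 0.188 in edgeR and 0.0114 in DESeq2). Of 10 genes for turnover of cyclin D, cyclin E and p27, 6 lay below and 4 above 0. DESeq2 called SKP2, which marks p27 for destruction, lower in TICs (−1.57, SE 0.36, adjusted p = 0.188 in edgeR and 0.00436 in DESeq2). It also called AMBRA1, an adaptor for the destruction of D-type cyclins, higher in knockdown TICs than in parental cells (1.41, SE 0.42, adjusted p = 0.256 in edgeR and 0.0283 in DESeq2). Of 7 Polycomb genes that act on the CDKN2A locus, 5 lay below 0 in TICs, and DESeq2 called EZH2 (−1.31, SE 0.35, adjusted p = 0.226 in edgeR and 0.0243 in DESeq2). The 3 genes of the CDK-activating kinase had no call by either tool, and in knockdown TICs against TICs neither tool called a gene of these 7 lists (3 genes had an unadjusted p under 0.05 in edgeR).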

How the data were processed

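The authors deposited raw read counts per gene symbol and, in a second table, mode-normalized values (a score: the count times 1 factor per library, rounded). Per the submitters' processing notes, CASAVA 1.4, TopHat 1.4, HTSeq 0.5.3p3 and hg19 were used, in roles not given in the sources used here. RNA was extracted with Qiagen RNeasy and libraries made with NuGEN reagents, per the labels. None of the 12 libraries was of parental cells with PRKCI knocked down.

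Counts were fitted in R 4.3.3 with edgeR 4.0.16 (filterByExpr, 14008 genes; TMM; robust quasi-likelihood; terms for state and line; 6 residual degrees of freedom), two-sided, with Benjamini-Hochberg adjustment at 0.05. Each SE is the size of its log2 fold change divided by the root of F. The biological coefficient of variation was 0.699. The line pairs the libraries: deviations of log2 CPM from the state means correlated at 0.553 to 0.760 within lines (12 pairs). Between libraries of different line and state they correlated at −0.414 to −0.0601 (36 pairs). Deviations from a state mean cancel over the lines, so the second range is not separate from the first. The script was tested on simulated data. Alternatives used DESeq2 1.42.0 and limma 3.58.1 (pseudocount 1). Log2 differences within a line use a prior count of 2. Intervals cover counting error only, and limits cover only that of the count of 0. Named genes are the 10 members, PRKCI, list genes called or among the 3 of smallest p in a comparison, neighbours of members with under 3 reads in a library, and the genes of most like pattern. Members and lists were chosen with earlier results of these data known.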

Additional observations from a re-analysis of the deposited data

Results flagged for a closer look

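In each state the 4 lines' levels of a member were searched for a line whose gap to its nearest neighbour took a larger part of the whole range than Dixon's 95% limit allows for 4 values, and 6 of 30 groups had one. Chance gives about 1 in 20 for normal values, and over all genes tested 16.9% of such groups had one. Of the 6, 3 are 1 gene and 1 line: for CCND2 it was H1703 in each state, at 3058 CPM in parental cells, 4302 CPM in TICs and 4766 CPM in knockdown TICs. CALU stood apart in TICs for CDKN2B, at 583.2 CPM, and in knockdown TICs for CDKN1C, at 2.269 CPM. H1299 stood apart in TICs for CDKN1B, at 119.3 CPM.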

How the results depend on the processing

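Of 379 values for the members under other settings, 349 kept their direction and side of the threshold, 26 turned in direction, 2 lost and 2 gained a call between lines, and no member passed a test of state in any. Without the replicate block for line, which pairs the libraries, edgeR called 0 genes in each comparison (339, 128 and 319 at an unadjusted p under 0.05), and the log2 fold change turned for CCND2 (0.546), CDKN1B (−0.041) and RB1 (0.302) in TICs against parental cells, for CCND1 (−0.017) and CDKN1C (−0.768) in knockdown TICs against TICs, and for CCND2 (0.667), CCND3 (0.072) and RB1 (0.032) in knockdown TICs against parental cells. Mode-normalized values with limma, which moved the median of all genes in TICs against parental cells from −0.0199 to 0.113, turned RB1 (0.067) there, CCND1 (−0.024) in knockdown TICs against TICs, and CCND2 (0.103) and CDKN1B (0.034) in knockdown TICs against parental cells. With the libraries of 2 states alone CCND2 turned in the last comparison (0.250). Leaving out each line in turn gave, in TICs against parental cells, −0.032 to 0.238 for CCND1, −2.082 to 0.709 for CCND2 and −0.369 to 0.309 for RB1, each turned without CHAGO, and −0.390 to 0.367 for CDKN1B, turned without H1299. In knockdown TICs against TICs it gave −0.041 to 0.164 for CCND1, −1.104 to 0.031 for CDKN2B and −0.470 to 2.067 for CDKN1C, turned without H1703, and −0.204 to 0.160 for CDKN1B, turned without H1299. In knockdown TICs against parental cells it gave −0.978 to 1.060 for CCND2, −0.438 to 0.271 for CCND3 and −0.522 to 0.030 for RB1, turned without CHAGO, and −0.099 to 0.800 for CDK6 and −0.229 to 0.202 for CDKN1B, turned without CALU. None of these differences passed the test before or after, and the cause was not tested.

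The genes called were 4, 2 and 5 in TICs against parental cells, knockdown TICs against TICs and knockdown TICs against parental cells. They became 512, 11 and 400 with DESeq2, 43, 1 and 20 with mode-normalized values and limma, and 0, 0 and 0 with the libraries of 2 states alone, where 1188, 808 and 1103 had an unadjusted p under 0.05. With 1 CPM required in 4 libraries the last 2 were 0 and 3, and DESeq2 size factors gave 8 in the last. Without 1 line they ranged from 0 to 0, 0 to 1 and 0 to 2. Between lines 6359 genes were called, and 2342 to 5148 without 1 state. CDK4 gained a call between lines with DESeq2 size factors (adjusted p = 0.0416 in edgeR) and with DESeq2 (0.00487). With the longest coding transcript as length, the CCND1 share, averaged over states, moved from 95.2% to 91.9% in H1299 and from 94.4% to 89.2% in CHAGO. Depth limits CDKN1C and, in CHAGO, CCND2, where 3 reads are the limit of a count of 0.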
